A study of Gallus gallus with 65 samples.

Results

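The comparison described here is neomycin-treated chick utricle against time-matched control utricle at 24 hr of recovery. The study places its times in the early phases of regeneration of the sensory epithelium (SE). Samples of the comparison were taken by their titles and by the dye named in their headers. They are 21 of the 65 two-colour arrays of the series and carried 3 of its 9 biological replicates. Utricles of White Leghorn chicks, 10 to 21 days post hatch, were cultured for 24 hr with 1 mM neomycin, rinsed, and kept for a further 24 hr in medium with no neomycin. Control utricles had the same culture, medium and rinses and never received the drug. Per the study's methods the SE was then freed from its stroma with thermolysin, and a biological sample pooled 4 treated and 4 control epithelia. The study describes the treated epithelium at this time as one that has lost most hair cells and whose RNA is largely that of supporting cells. In such bulk RNA, fewer cells of a type and less RNA per cell cannot be told apart.

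Hair cells of the utricle turn head movement into nerve signals, and aminoglycosides such as neomycin kill them. In mammals the loss is largely permanent. In birds the surrounding supporting cells re-enter the cell cycle or change fate and replace the lost hair cells, and transcription factors (TFs) such as ATOH1, SOX2 and the Notch effectors of the HES and HEY families are known to steer that choice. The arrays carried 50-mer probes for human TF genes. The measurement therefore asks how the TF repertoire of the epithelium differs once, per the study, most hair cells are gone. Chick cDNA was hybridised to human probes, so a probe can also capture a related chick gene. Of the 1281 probes tested, 651 had a symbol that is a chick gene symbol in RefSeq (GRCg7b) and a further 49 matched a synonym. The other 581 are given by the array's name alone.

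Each value below is a log2 ratio of neomycin over control, normalized within its array. Replicates 1, 2 and 3 had 7, 8 and 6 arrays. Neomycin RNA was labelled with Cy3 on 11 arrays and with Cy5 on 10, so each replicate was measured in both dye orientations and its value is the mean of both. Arrays of a replicate share their RNA, and n is therefore 3. Signals were low, and the ratio of signal to local background for the median spot was 2.11 in the Cy3 channel and 1.95 in the Cy5 channel (medians over the 21 arrays). On 6 arrays that ratio was below 1.2 in Cy5, and 5 of those 6 belonged to replicate 1. No counts exist for these arrays, and the number of replicates limits the precision.

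Arrays resembled each other far less than the duplicate spots of an array did. Duplicate spots of an array had a median Pearson r of 0.655 across probes, and arrays of the same replicate and orientation had a median r of 0.253 over 27 pairs. Arrays of the same replicate in opposite orientations had a median r of -0.138 over 37 pairs, and 8 of those pairs were under -0.3. Averaged within replicates, the orientations correlated at -0.25, -0.34 and -0.34, and values of different replicates at 0.02, 0.13 and -0.03. These are descriptions across probes, which are not independent. Before the ratios were turned to neomycin over control the orientations therefore did not oppose each other, and every value below takes its direction from the headers. If all signs were turned, each count of higher probes becomes a count of lower probes.

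**Figure D1:**
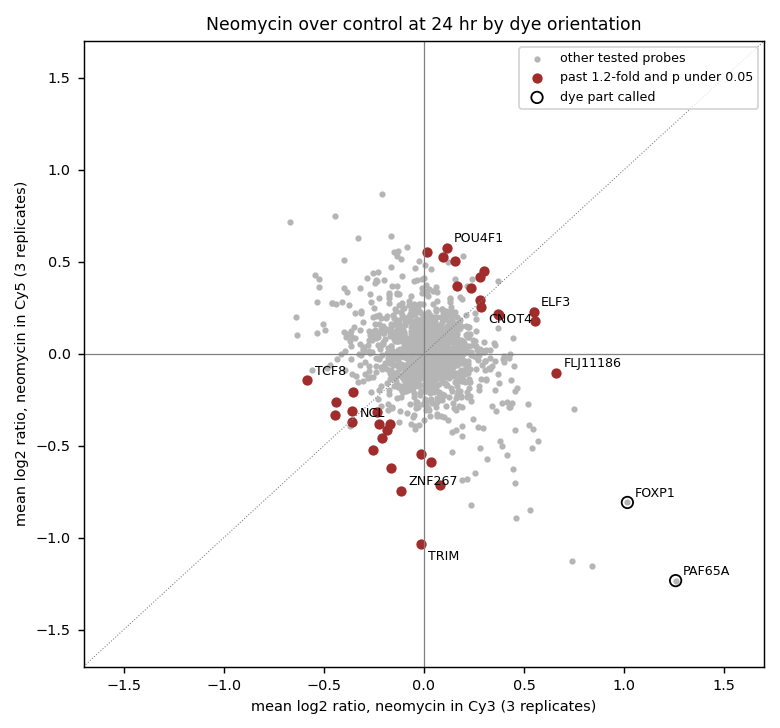
Mean log2 ratio of neomycin over control at 24 hr for the 1281 tested probes, with neomycin in Cy3 on the horizontal axis and in Cy5 on the vertical axis (means of 3 replicates, dotted line for equal values). Red points are the 33 probes that differed by over 1.2-fold at an unadjusted p under 0.05. TRIM lies at -0.02 and -1.03, and FOXP1 and PAF65A (open circles) have opposite signs in the orientations.

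Ratios of treated over control SE at 24 hr were small. The lowest ratio was -0.53 (TRIM) and the highest 0.39, and the middle of the distribution lay at 0.00, with 666 of 1281 probes (52%) above 0. Both a 1.2-fold difference and an unadjusted p under 0.05, called the limits of fold and p below, were met by 33 probes (2.58%), of which 15 were higher in treated SE (1.17%) and 18 were lower (1.41%); with the sign turned these are 18 and 15. Median centring of the arrays in place of loess gave 3 higher and 14 lower, and print-tip loess gave 8 higher and 16 lower. The higher probes included the epithelial ETS factor ELF3, the neuronal POU factor POU4F1, TBX15, HOXA4 and the ubiquitin ligase CNOT4. The lower probes included nucleolin (NCL), the homeobox repressor TCF8 (ZEB1), the stress genes DDIT3 and HSF1, and PFDN5. No probe was called by limma at a Benjamini-Hochberg adjusted p under 0.05 (0% of those tested), while 72 (5.62%) had an unadjusted p under 0.05. A share near that threshold is what no difference at any probe would give. The median SD over the 3 replicates was 0.14, which is larger than most of the ratios. The size of the mean ratio had a median of 0.07 and an upper quartile of 0.12. All 32 of the past probes other than TRIM had an adjusted p of 0.845 in limma.

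Within the 33, 25 had the same sign in all 3 replicates, against 375 of 1281 (29.3%) among all probes, and 30 had the same sign in both orientations, against 574 (44.8%). Both held for 23 probes, 12 higher and 11 lower, against 248 of all probes (19.4%). A small mean, or a wide spread pooled over the 3 times, keeps a probe out of the 33. A wide spread at 24 hr alone need not, as in HSF1 (SD 0.60). These shares therefore follow in part from the limits of fold and p and are given as a description. An effect over 0.2 on the log2 scale in both orientations was seen in 17 of the 33 and in 27 of all probes. In 6 of the 33 one orientation was under 0.1 in size, and in 3 the orientations had opposite signs.

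**Figure D2:**
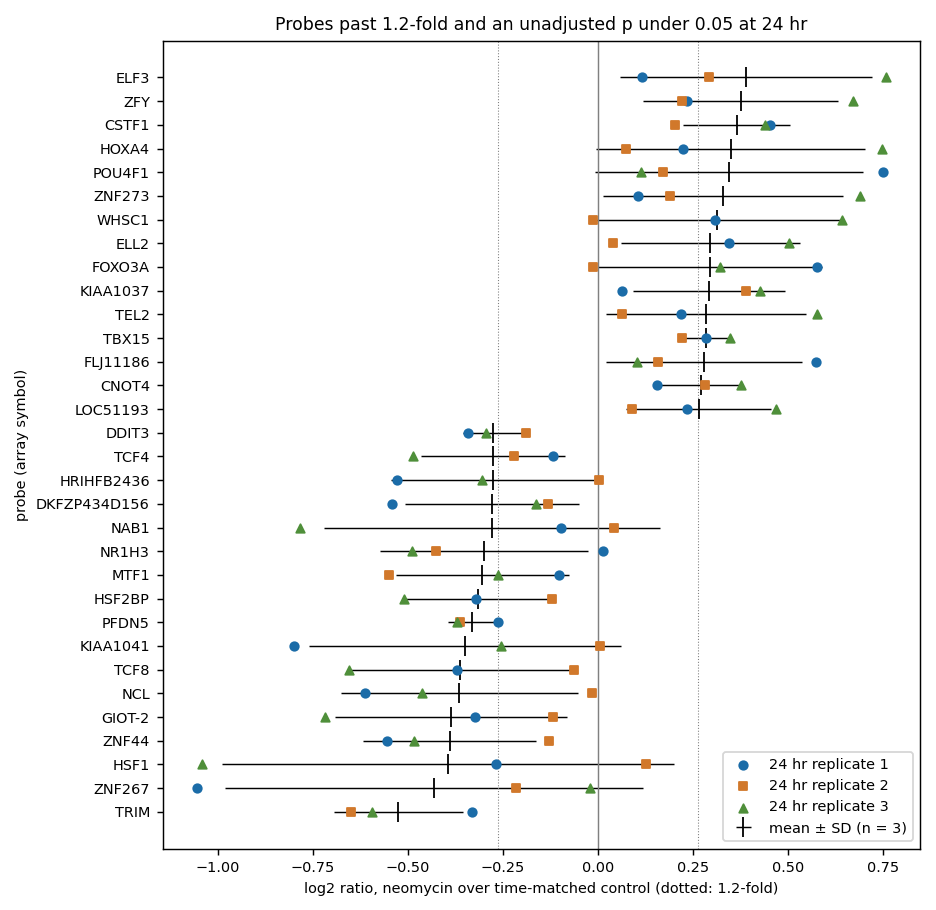
Log2 ratio of neomycin over control in each of the 3 replicates at 24 hr for 32 of the 33 probes past the limits of fold and p (coloured points), with the mean and SD (black, n = 3) and dotted lines at 1.2-fold. TBX15, CNOT4, CSTF1, DDIT3, PFDN5 and TRIM keep their 3 replicates on 1 side of 0 with small spreads, whereas ZNF267 and HSF1 each have a far lower replicate, at -1.05 and -1.04.

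TRIM, an array name with no match in the chick gene table, came closest to a call. Its replicates were -0.33, -0.65 and -0.59, a mean of -0.53 ± 0.17 (SD, n = 3), which is 1.44-fold lower in treated SE (limma adjusted p = 0.0601). The difference was seen on the arrays with neomycin in Cy5, where 9 of 10 were below 0 and the median was -1.25 (range -1.89 to 0.08). On the 11 arrays with neomycin in Cy3 the median was 0.15 (range -1.10 to 1.23), and the mean over replicates was -0.02 in this orientation against -1.03 in the other. Without the 6 arrays of weak Cy5 signal TRIM was -0.81 and passed the threshold (limma adjusted p = 0.00103), and over 30 alternative settings its adjusted p ran from 0.00103 to 0.999.

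PFDN5 and DDIT3 had the smallest spreads between replicates among the 18 lower probes. PFDN5, a subunit of the prefoldin chaperone that also binds MYC, was -0.26, -0.36 and -0.37, a mean of -0.33 ± 0.06 (SD, n = 3) and 1.26-fold lower. It was below 0 on 17 of 21 arrays, with a median of -0.32. DDIT3 (CHOP), a leucine zipper factor of the endoplasmic reticulum stress response that promotes cell death, was -0.34, -0.19 and -0.30, a mean of -0.28 ± 0.08. In neither gene did a replicate reach 0. NCL, the nucleolar protein of ribosome assembly, was -0.61, -0.02 and -0.46 (mean -0.36 ± 0.31), below 0 on 19 of 21 arrays and nearly equal in both orientations (-0.36 in Cy3, -0.37 in Cy5). Its second replicate lay at 0, so the replicate spread is almost as large as the mean. HSF1, the master regulator of the heat shock response, was -0.27, 0.13 and -1.04 (mean -0.39 ± 0.60). That value rests on replicate 3: without it HSF1 was -0.07. MTF1, which switches on metallothioneins, was -0.10, -0.55 and -0.26 (mean -0.30 ± 0.23).

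Several repressors and lineage factors were also lower. TCF8 (ZEB1), the zinc finger homeobox protein that represses epithelial genes, was -0.37, -0.06 and -0.65 (mean -0.36 ± 0.30). The sign held in each replicate and the size did not. TCF4, a basic helix-loop-helix E protein, was -0.12, -0.22 and -0.49 (mean -0.28 ± 0.19). The nuclear receptor NR1H3, the oxysterol sensor known as LXR alpha, was 0.01, -0.43 and -0.49 (mean -0.30 ± 0.27). NAB1, a corepressor of the EGR factors, was -0.10, 0.04 and -0.78 (mean -0.28 ± 0.44). NR1H3 in replicate 1 and NAB1 in replicate 2 were on the other side of 0. ZNF267, ZNF44 and GIOT-2, names with no match among the chick symbols, had means of -0.43 ± 0.55, -0.39 ± 0.23 and -0.39 ± 0.30. The study's supplement annotates GIOT-2 as the zinc finger gene ZNF44, so the last 2 of these may be probes of a single gene. The ZNF267 mean was carried by replicate 1, at -1.05, with -0.22 and -0.02 in the others. The remaining lower probes included HSF2BP (-0.32 ± 0.19) and KIAA1041, annotated in that supplement as the forkhead gene FOXJ3 (-0.35 ± 0.41). Also lower were the array names HRIHFB2436 and DKFZP434D156, both at -0.28. DKFZP434D156 was -0.01 in Cy3 and -0.55 in Cy5, and it was -0.15 without replicate 1. HSF2BP was 0.08 in Cy3 and -0.71 in Cy5.

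Among the higher probes, CNOT4 and TBX15 were the most even. CNOT4, a ubiquitin ligase tied to the CCR4-NOT complex that shortens mRNA tails, was 0.16, 0.28 and 0.38, a mean of 0.27 ± 0.11 (SD, n = 3), and 16 of 21 arrays were above 0. Its orientations were 0.29 in Cy3 and 0.26 in Cy5. It was 1 of 4 past probes, with ZFY, ZNF273 and PFDN5, whose sign was the same in 6 of 6 values, 1 for each replicate and orientation. TBX15, a T-box factor of skeletal development, was 0.28, 0.22 and 0.35 (mean 0.28 ± 0.06), with 0.28 and 0.29 in the orientations. CSTF1, a subunit of the cleavage stimulation factor that forms mRNA 3′ ends, was 0.45, 0.20 and 0.44 (mean 0.36 ± 0.14). For these genes the replicates were all above 0 and the SD was well under the mean.

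In the other higher probes the replicates were less even. ELF3, an ETS factor of differentiating epithelia, was 0.11, 0.29 and 0.76 (mean 0.39 ± 0.33), and HOXA4 was 0.22, 0.07 and 0.75 (mean 0.35 ± 0.35). Both had replicate 3 as their highest value, and without it ELF3 was 0.20 and HOXA4 0.15. POU4F1 (BRN3A), which marks sensory neurons, was 0.75, 0.17 and 0.11 (mean 0.34 ± 0.35), with replicate 1 as its highest. That replicate was 0.16 in Cy3 and 1.34 in Cy5, and without it POU4F1 was 0.14. Over the replicates its mean was 0.11 in Cy3 and 0.57 in Cy5. FOXO3A, a forkhead factor held out of the nucleus by growth factor signalling, was 0.57, -0.01 and 0.32 (mean 0.29 ± 0.30). ELL2, a factor of transcript elongation, was 0.34, 0.04 and 0.50 (mean 0.29 ± 0.24), and WHSC1, a histone methyltransferase, was 0.31, -0.01 and 0.64 (mean 0.31 ± 0.33). In FOXO3A, ELL2 and WHSC1 replicate 2 lay at or near 0. TEL2, listed among the ETS genes by its name, had a mean of 0.28 ± 0.26 that came from the Cy5 orientation (0.55) and not from Cy3 (0.02). The zinc finger genes ZFY and ZNF273 were 0.38 ± 0.26 and 0.33 ± 0.32, and the array names KIAA1037, FLJ11186 and LOC51193 lay between 0.26 and 0.29.

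A stricter description asks which probes had 1 sign in all 6 values, that is, in each replicate and each orientation. This held for 27 of 1281 probes (2.11%), 13 higher and 14 lower, and all but 4 of them were under the fold or p limit. Among the lower were NFIX, a nuclear factor I gene (-0.24 ± 0.11), NFYC, a subunit of the CCAAT-binding factor NF-Y (-0.25 ± 0.04), TGFB1I1, a focal adhesion adaptor (-0.23 ± 0.15), CRSP8, the Mediator subunit MED27 (-0.25 ± 0.20), and RFC1, the large subunit of the clamp loader of DNA replication (-0.24 ± 0.12). Among the higher were HEY2, a Notch target (0.20 ± 0.13), MLL2, a histone methyltransferase (0.18 ± 0.07), and NFATC4 (0.16 ± 0.13). NFYC, RFC1 and NFATC4 were picked from this list after their values were seen. The p of these genes in limma did not pass adjustment either (0.845 for NFIX and HEY2).

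The 31 gene lists, built from name patterns, held 715 of the 1281 tested probes, and 4 probes were in more than 1 list. None of them had a called member, and the shares past fold and p stayed near the 2.58% of all probes or rested on 1 or 2 genes. The medians ran from -0.08 to 0.08, against 0.00 for all probes, and each was smaller in size than the replicate SD of a typical probe (0.14).

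**Figure D3:**
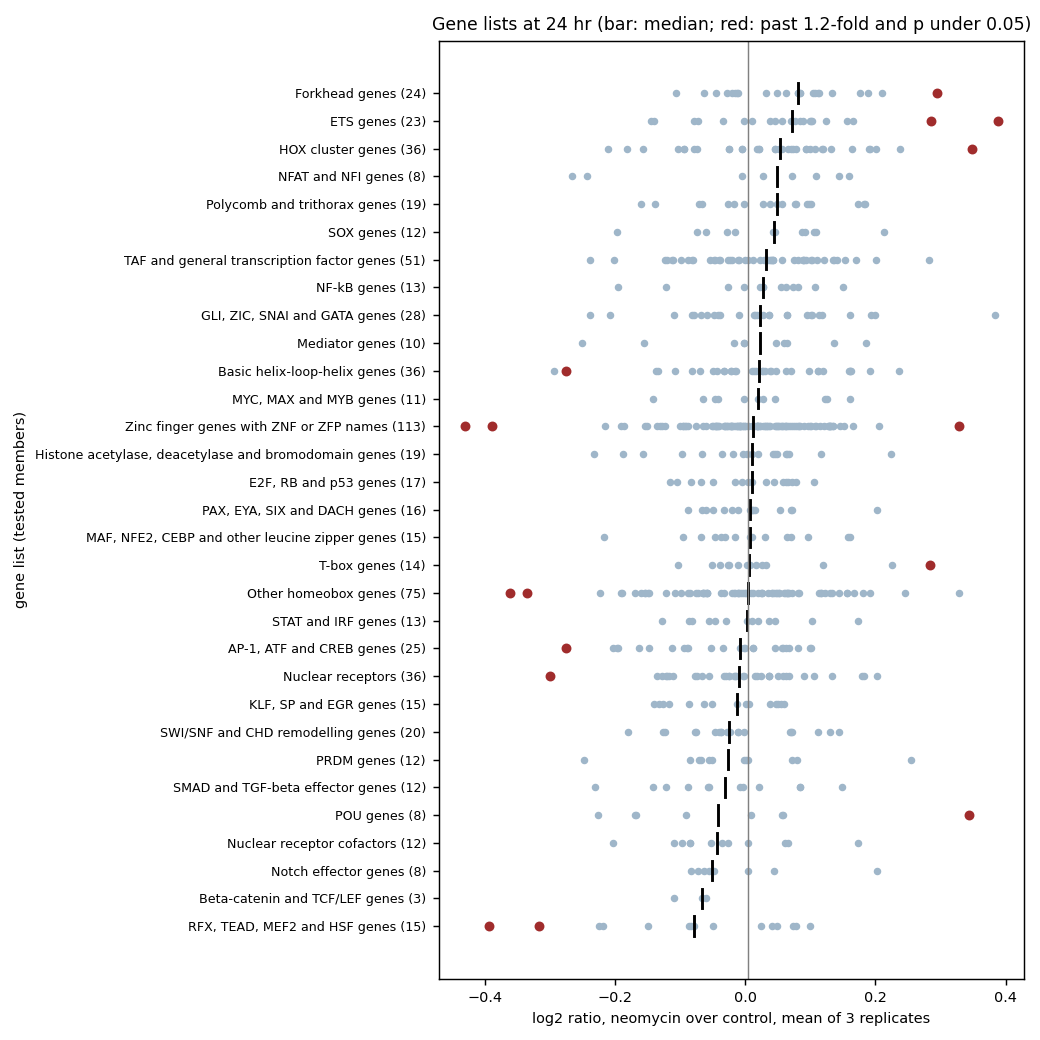
Mean log2 ratio at 24 hr of each tested member of the 31 gene lists (points, number of tested members in brackets), the median of each list (black bar) and the members past the limits of fold and p (red). The list medians lie within 0.08 of 0, and no list has more than 2 red members in 1 direction.

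Homeobox genes set body position and organ identity. Of 38 HOX cluster genes on the array 36 were tested, with a median of 0.05, and 24 were above 0. HOXA4 was the only one past fold and p (2.78% of the list). Of the 36 HOX genes 20 had 1 sign in all 3 replicates, 15 above and 5 below 0, against 29.3% of all probes. HOXA3 was the lowest, at -0.21 ± 0.22, with -0.53 in Cy3 and 0.11 in Cy5. The HOX median was above 0 in 29 of 30 alternative settings and was -0.08 among the 192 brightest probes. Other homeobox genes (75 tested) had a median of 0.00 with 39 above 0, and 2 were past fold and p, TCF8 among them. TITF1 (NKX2-1) was -0.22 ± 0.20. POU genes (8 tested) had a median of -0.04, and POU4F1 was the only one past fold and p.

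Zinc finger genes formed the largest list. Of 167 genes with ZNF or ZFP names 113 were tested, with a median of 0.01, and 61 were above 0. ZNF273 was higher and ZNF267 and ZNF44 lower past fold and p, 2.65% of the list against 2.58% of all probes. The KLF, SP and EGR genes (15 tested, median -0.01) held no member past either limit, and EGR4 was -0.13 ± 0.10. Among the GLI, ZIC, SNAI and GATA genes (28 tested, median 0.02) FOG2, a GATA cofactor, was -0.24 ± 0.23, and BCL11A was 0.38 ± 0.22 with all replicates above 0 (0.33, 0.19 and 0.63) and a p just outside the limit. PRDM genes (12 tested) had a median of -0.03. None was past fold and p.

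Forkhead and ETS genes had the highest medians. The 24 forkhead genes had a median of 0.08 with 16 above 0, and all 6 that kept 1 sign in the 3 replicates were above 0. FOXO3A was past fold and p, FOXM1, a cell cycle factor, was 0.18 ± 0.14, and HNF3A (FOXA1) was 0.19 ± 0.20. KIAA1041, which the study annotates as FOXJ3, is outside this list by its array name and was past fold and p in the other direction, at -0.80, 0.00 and -0.26. The forkhead median was 0.07 in the Cy3 orientation and -0.01 in Cy5. The 23 ETS genes had a median of 0.07 with 17 above 0, ELF3 and TEL2 were past fold and p (8.7%), and 7 of the 9 that kept their sign were above 0. The ETS median stayed above 0 in all 30 alternatives, from 0.05 to 0.27, but these reuse the same arrays and some cannot change it. SOX genes (12 tested, median 0.04) had none past the limits, and T-box genes (14 tested, median 0.00) had TBX15, with TBX5 at 0.23 ± 0.16.

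General transcription and chromatin genes were close to all probes. The 51 TAF and general transcription factor genes had a median of 0.03 with 30 above 0, and none was past fold and p. TAF2J was 0.20 ± 0.16 with 0.43 in Cy3 and -0.03 in Cy5. Of the 14 that kept their sign 11 were above 0. Mediator genes (10 tested) had a median of 0.02, with CRSP8 at -0.25 and PPARBP, its subunit that contacts nuclear receptors, at 0.19 ± 0.17. The SWI/SNF and CHD remodelling genes (20 tested, median -0.03) had 6 above 0, and SRCAP, a remodeller of the SWI2/SNF2 class, was -0.18 ± 0.04 with the difference in the Cy5 orientation (-0.36) and none in Cy3 (0.00). The 19 Polycomb and trithorax genes had a median of 0.05, with MLL2 at 0.18 and EZH1, a Polycomb methyltransferase, at 0.18 ± 0.11. Histone acetylase, deacetylase and bromodomain genes (19 tested) had a median of 0.01, and SAP30 of the SIN3 complex was -0.19 ± 0.11.

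Nuclear receptors (36 tested) had a median of -0.01 with 16 above 0, and NR1H3 was the only member past fold and p. HNF4A was 0.18 ± 0.21. Their cofactors (12 tested) had a median of -0.04 with 4 above 0, TRIP11 at -0.20 ± 0.11 and NCOA3, a steroid receptor coactivator, at 0.17 ± 0.13.

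The basic helix-loop-helix and Notch lists hold the genes best known from hair cell fate. Of 36 basic helix-loop-helix genes 21 were above 0, the median was 0.02, and TCF4 was the only one past fold and p. NEUROD6 was -0.29 ± 0.29, with 0.24 in Cy3 and -0.82 in Cy5. All 8 members of the Notch effector list were tested, with a median of -0.05 and 3 above 0. KIAA1528, which the study annotates as DTX2, is outside this list by its array name. HEY2 was the only one with an unadjusted p under 0.05, at 0.10, 0.15 and 0.35. HRY (HES1) was -0.14, -0.16 and 0.31, and HEY1 was -0.08, -0.17 and 0.38. In each of these replicate 3 stood apart from the others as the highest.

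Immediate-early, stress and signalling factors gave few differences. In the AP-1, ATF and CREB list (25 tested, median -0.01, 10 above 0) DDIT3 was past fold and p and CREB3, a factor of the endoplasmic reticulum membrane, was -0.20 ± 0.24. The 15 MAF, NFE2 and CEBP genes had a median of 0.01, with MAFG at 0.16 ± 0.19 and MAFK at -0.10 ± 0.10. The RFX, TEAD, MEF2 and HSF list (15 tested) had the lowest median, -0.08. It was below 0 in all 30 alternatives, which reuse the same samples and of which some cannot change it. The median of the replicate 3 values was above 0. HSF1 and HSF2BP were past fold and p (13.33%), although HSF2BP is a protein that binds a heat shock factor and is in the list only by its name. TEAD3, a partner of the Hippo effector YAP, was -0.23 ± 0.29 with 0.07, -0.23 and -0.52. NF-kB genes (13 tested, median 0.03) had NFKBIL1 at -0.20 ± 0.12, STAT and IRF genes (13 tested, median 0.00) had STAT3 at 0.17 ± 0.42, and SMAD and TGF-beta effectors (12 tested, median -0.03) had TGFB1I1 at -0.23 and MADH2 (SMAD2) at 0.15 ± 0.19. Of NFAT and NFI genes (8 tested, median 0.05) NFIX was lower and NFIC was 0.14 ± 0.17. The 3 tested beta-catenin and TCF/LEF genes were between -0.11 and -0.06.

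Genes of the cell cycle showed no difference past either limit at this time. The 17 E2F, RB and p53 genes had a median of 0.01, with RBL1 at -0.12 ± 0.22 and E2F6 at 0.11 ± 0.10. The 11 MYC, MAX and MYB genes had a median of 0.02, with MYCN at 0.16 ± 0.15 and MNT, a MAX partner that opposes MYC, at -0.14 ± 0.10. A p that misses the limit does not show that these genes were equal in treated and control SE.

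Markers of the cell types were compared next. The 4 tested hair cell markers were all above local background, with median signals 1.96 to 2.37 times it, against 1.85 for the median tested probe. In replicate 1 alone the signal of POU4F3 was 1.39 times background. The means of the 4 markers were -0.09 to 0.04 and none had an unadjusted p under 0.05. ATOH1, the factor that specifies hair cells, was -0.28, 0.15 and 0.18, and POU4F3, needed for their survival, was -0.32, 0.22 and -0.17. GFI1 was 0.18, -0.10 and -0.02, and BARHL1 was 0.05, 0.05 and 0.03. The replicates of ATOH1, POU4F3 and GFI1 lay on both sides of 0. Without replicate 1 ATOH1 was 0.16 and POU4F3 0.02. A loss of hair cell transcripts was thus not detected with these probes, which does not show that there was none. For scale, the standard error of POU4F3 in the fit was 0.11.

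Of the 8 tested supporting cell markers, which ran from -0.05 to 0.21, only HEY2 had an unadjusted p under 0.05. SOX2, a factor of supporting cells and their progenitors, was 0.51, 0.26 and -0.13 (mean 0.21 ± 0.32), with 0.56 in Cy5 and -0.13 in Cy3. GATA3 was -0.02, 0.10 and 0.12, and PAX2 was 0.12, -0.16 and 0.06. The replicates of all 3 genes lay on both sides of 0. Markers of other cells that a preparation could hold were similar: 6 of stroma lay between -0.04 and 0.12, 3 of melanocytes between -0.07 and 0.09 and 5 of blood cells between -0.07 and 0.04, with none at an unadjusted p under 0.05. Of the 5 neuron and glia markers, from -0.07 to 0.34, POU4F1 had one. NEUROD1 was 0.29, -0.10 and 0.29 and ISL1 0.19, -0.18 and -0.20. Nerve remnants in the preparation were not tested as a source of the POU4F1 value.

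**Figure D4:**
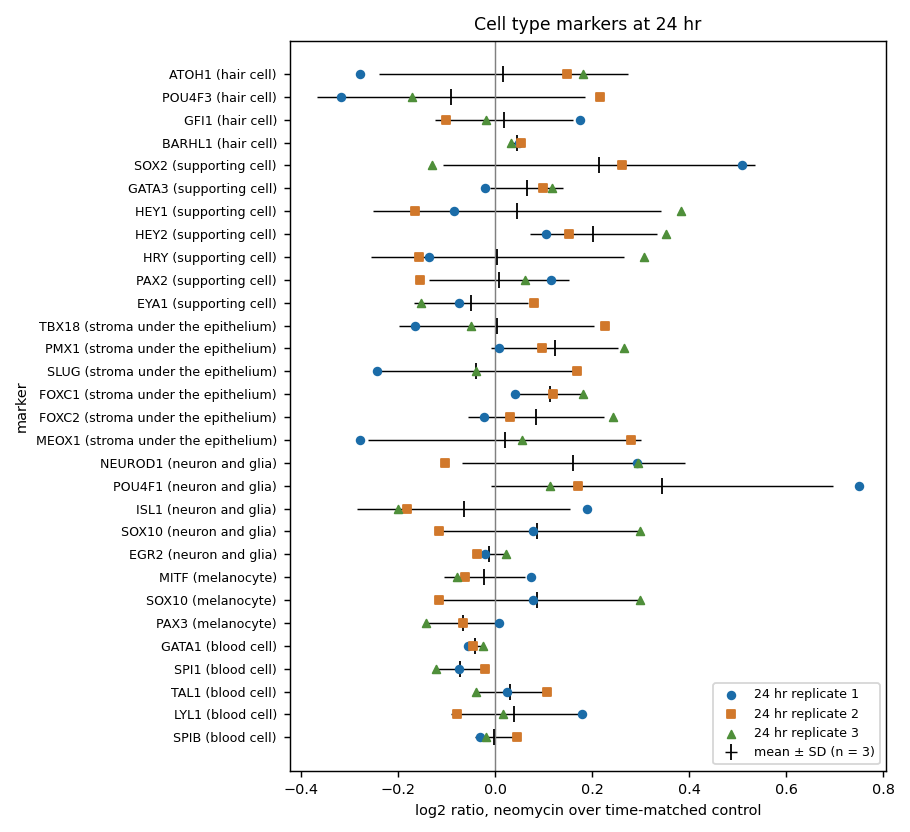
Log2 ratio of neomycin over control at 24 hr in each replicate (coloured points) for the cell type markers shown, with mean and SD (black, n = 3). Hair cell markers lie between -0.09 and 0.04, and HEY2 and POU4F1 are the markers with an unadjusted p under 0.05.

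Genes the study itself followed at several times were chosen on these samples and are given as values. CTNNB1, beta-catenin, was -0.12, -0.15 and 0.07 at 24 hr (mean -0.07 ± 0.12). CEBPG was 0.11, 0.38 and -1.15 (mean -0.22 ± 0.82), and TRIP15, a COP9 signalosome subunit, was -0.07, -0.13 and -0.06 (mean -0.09 ± 0.04). KIAA0173 had a mean of 0.15 ± 0.17, made of 0.75 in Cy5 and -0.45 in Cy3. None of these 4 reached 1.2-fold. Among the other genes it singled out, ZNF44 is the probe GIOT-2 in its supplement. GIOT-2 was past fold and p, as was the separate probe named ZNF44. ZNF93 was 0.21 ± 0.08, TITF1 -0.22 ± 0.20, MAPK8IP1 -0.20 ± 0.65 and HNF3A 0.19 ± 0.20. MAPK8IP1, a JNK scaffold, had a single low replicate (0.29, 0.04 and -0.95).

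The 24 hr values were then set beside those at 0 hr and 48 hr, which came from other biological samples with their own controls. The labels do not say which animals gave which time. Of the 33 probes, 21 had the same sign at 0 hr (63.6%, against 60.3% of all probes) and 28 at 48 hr (84.8%, against 58.9%), and 7 and 5 of them were past fold and p there in the same direction. Over all probes, 38 (2.97%) were past fold and p at 0 hr, 26 higher (2.03%) and 12 lower (0.937%), and 78 (6.09%) had an unadjusted p under 0.05. At 48 hr 38 (2.97%) were past fold and p, 27 higher (2.11%) and 11 lower (0.859%), and 97 (7.57%) had an unadjusted p under 0.05. No probe was called by limma at either time (0%). The shared signs covered genes such as TBX15 (0.40 at 0 hr, 0.28 at 24 hr, 0.24 at 48 hr), HOXA4 (0.33, 0.35, 0.24), ELF3 (0.33, 0.39, 0.44) and TCF8 (-0.30, -0.36, -0.31). The means of these 4 genes were similar at each time, but replicates could scatter widely. Those of ELF3 were 0.65, 0.27 and 0.06 at 0 hr and 1.00, 0.29 and 0.03 at 48 hr. Means of other genes were farther from 0 at 24 hr than at the times around it. PFDN5 was 0.06 at 0 hr and 0.16 at 48 hr against -0.33, and NCL was 0.06 and -0.17 against -0.36. The 48 hr mean of PFDN5 included a replicate 2 of 0.64. POU4F1 was -0.19 at 0 hr and 0.00 at 48 hr against 0.34, and DKFZP434D156 0.21 and -0.20 against -0.28. These genes were picked for their size at 24 hr, so smaller means at other times follow in part from that choice. At 0, 24 and 48 hr the 15 higher probes had medians of 0.22, 0.29 and 0.24. The 18 lower probes had -0.03, -0.33 and -0.13.

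**Figure D5:**
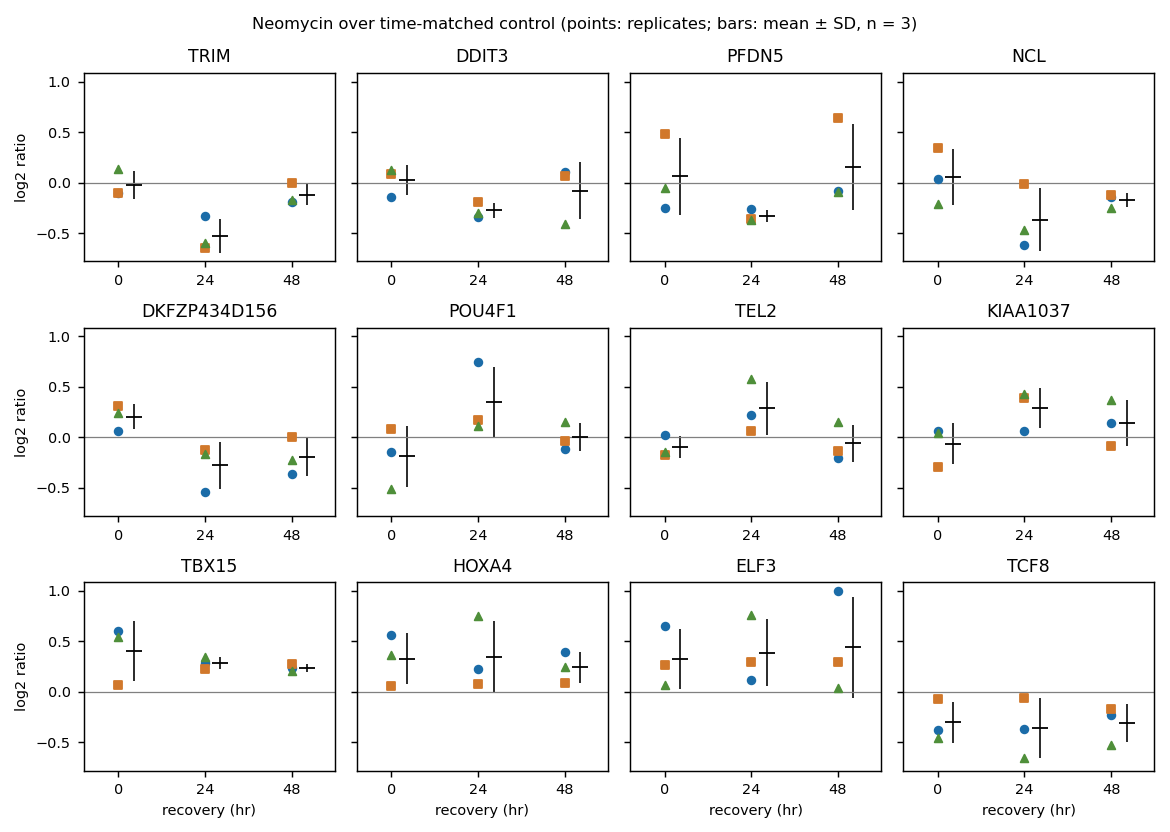
Log2 ratio of neomycin over time-matched control at 0, 24 and 48 hr for 12 of the probes past fold and p at 24 hr, with replicates 1 (circles), 2 (squares) and 3 (triangles) and mean with SD (n = 3). TRIM and PFDN5 are low at 24 hr and near or above 0 at 0 hr, while TBX15, HOXA4, ELF3 and TCF8 keep 1 side of 0 at each time.

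The differences between times were tested in the same fit. Between 24 and 0 hr no probe was called by limma at an adjusted p under 0.05 (0%), 29 (2.26%) had an unadjusted p under 0.05, and 24 (1.87%) were also past 1.2-fold, 13 higher (1.01%) and 11 lower (0.859%) at 24 hr. Among the smallest p were those of TRIM, whose ratio was 0.50 lower at 24 hr than at 0 hr on the log2 scale, RGC32 (0.03 against 0.37), DKFZP434D156 and GTF2E2 (0.00 against -0.44). Their adjusted p was 0.998 in limma. Between 48 and 24 hr none was called (0%), 45 (3.51%) had an unadjusted p under 0.05, and 36 (2.81%) were also past the fold, 21 higher (1.64%) and 15 lower (1.17%) at 48 hr. TRIM was 0.40 higher at 48 hr than at 24 hr, and CTNNB1 was -0.07 at 24 hr and 0.82 ± 0.96 at 48 hr (limma adjusted p = 0.999 for the difference). The 48 hr replicates of CTNNB1 were -0.12, 0.77 and 1.80. Both comparisons use the 24 hr samples, so a gene at an extreme at 24 hr enters both.

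Days of image quantification, as the headers give them, differed between the times. The 3 days of 24 hr replicate 1 held no other time. Replicate 2 shared 2 days with 48 hr replicate 2, where 19 of the 33 probes (57.6%) lay farther in their 24 hr direction than on the 48 hr arrays, against 59.3% of all probes. Replicate 3 shared a day with 0 hr replicate 3, and there 28 of the 33 (84.8%) did, against 61.4%. On the days shared with 48 hr NR1H3 was -0.43 against 0.23 at 48 hr and PFDN5 was -0.36 against 0.64, whereas TBX15 (0.22 against 0.28) and ELF3 (0.29 in both) did not separate. Others went the other way, among them ZNF44 (-0.13 against -0.67), HSF1 (0.13 against -0.35) and FOXO3A (-0.01 against 0.42). Each of these values is that of a single replicate. The replicates also entered the choice of the 33, so these shares are descriptions.

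Finally, the part of the ratios that follows the dye was tested in the same way, as the mean difference between the orientations divided by 2. It called 2 probes (0.156%), which is more than the treatment did. FOXP1 had 1.02 with neomycin in Cy3 and -0.81 in Cy5 (dye part -0.91, limma adjusted p = 0.0199), and PAF65A had 1.26 and -1.23 (dye part -1.24, limma adjusted p = 0.0199). Their treatment means were 0.10 and 0.01. Past fold and p were 64 probes (5%) in the dye part against 33 in the treatment. Brightness moved with the direction too. The 18 lower probes had a median brightness of 1711 units, the 15 higher probes 428 and all probes 342, and among the brightest 25% of the probes 44.1% were above 0, 6 were higher and 13 lower past fold and p. The part of brightness in the counts of higher and lower probes was not tested.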

How the data were processed

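RNA of neomycin-treated and control SE was, per the study's methods, amplified and copied into cDNA that was labelled with the dyes and applied to slides that carry each probe as a pair of spots. The authors deposited spot and local background intensities, not normalized, which per the file headers were written by ImaGene 4.1. In their series matrix the authors gave log2 ratios, which were the same as foreground log2 ratios turned to neomycin over control (largest difference 5.33e-15), with no background correction and array medians from -2.03 to 1.81. The members, gene lists and limits were chosen with earlier results of these data known.

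Intensities were corrected by normexp (offset 50) and normalized within arrays by global loess in limma 3.58.1 (R 4.3.3), with spots of no gene at weight 0. Arrays of title digit 3 had neomycin in Cy3 and those of digit 5 in Cy5, per the file headers. Duplicate spots were averaged, then arrays within an orientation of a replicate, then both orientations. Of 1507 gene probes the dimmest 15% (226) were removed, by the geometric mean of both dyes, and 1281 were tested. The 9 replicate values of the series were fitted with a coefficient per time point (lmFit, eBayes, two-sided), so that the times share an estimate of the spread. The threshold for a call was 0.05 on the Benjamini-Hochberg adjusted p. A second count took differences over 1.2-fold with an unadjusted p below 0.05. Both limits are those of the study, but p came here from limma and not from its t-test over hybridisations. The study also required a gene's direction to hold in 80% or more of its hybridisations. The second count used neither that rule nor the study's intensity cut-off. The methods' t-test, other normalizations, other filters and leaving out replicates were alternatives. The limma fit was tested on simulated replicate values, and the steps before it were not.

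Named genes were those past both limits with a stable sign, the 2 members of each list with the smallest p, the 5 smallest p between times, the cell type markers and the genes the study followed. A few genes that this rule names are not reported here. Nothing says that replicates came from separate cultures beyond their labels as biological samples. The limma p sets a mean against a spread pooled over the replicates of all time points and moderated by eBayes. It does not rest on the spread between the replicates of this comparison alone.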

Additional observations from a re-analysis of the deposited data

How the results depend on the processing

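The count of probes past fold and p at 24 hr (33) depended on the processing. It was 21 without background correction, 73 with plain subtraction, 17 with median centring (3 higher, 14 lower) and 13 with scale normalization. It was 12 among the 192 brightest probes, 82 with neomycin in Cy3 alone and 78 with it in Cy5 alone. The series matrix gave 9 (0 higher) and 16 after centring. When the study's 80% rule on direction was left out, its t-test over hybridisations gave 24, with 19 of these among the 33. With that rule 11 probes were tested, and 5 were past both limits (2 higher, 3 lower). Run on replicate values in place of hybridisations, the t-test gave 5. Arrays of a replicate share their RNA, so the test over hybridisations counts technical repeats as samples. Print-tip loess gave 24 (8 higher, 16 lower). Leaving out a replicate gave 26 to 73, the highest without 24 hr replicate 2 and 26 without 24 hr replicate 3. The causes were not tested. The 33 probes, where tested, kept their direction under these settings, except 2 with neomycin in Cy3 alone and 1 with it in Cy5 alone. Among the 192 brightest probes only 14 of them were tested. Of all probes, 70.8% kept their direction in Cy3 alone, 74% in Cy5 alone and 84.3% without background correction. The 33 were chosen for their size on the same arrays, so these shares are descriptions. Without 24 hr replicate 3, 6 of the 33 were still past both limits. Of 115 tested named genes 66 kept their direction in all of 30 alternatives, some of which cannot change a 24 hr mean.

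The count called at an adjusted p (0) became 1 without background correction (TRIM, limma adjusted p = 0.0362, over a range of 0.00103 to 0.999), 2 in Cy5 alone (PAF65A and KIAA0173), and 1 without the 6 arrays of weak Cy5 signal, a setting chosen after seeing the data, which gave 81 probes past fold and p, 26 of them shared with the 33, and left replicate 1 with a single array per orientation. Between 24 and 0 hr the count past fold and p (24) became 4 among bright probes and 13 in Cy3 alone, and 19 to 54 with a replicate left out: 54 without 0 hr replicate 2, 51 without 24 hr replicate 1 and 44 without 24 hr replicate 2. Between 48 and 24 hr (36) it became 66 with plain subtraction, 23 with median centring and 1 among bright probes, and 29 to 49 with a replicate left out. The 2 probes called in the dye part became 0 with median centring and 0 to 0 with any 24 hr replicate left out.

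Replicate numbers are shared between times, but only 1 of 9 same-numbered pairs correlated over 0.1. With the replicate block no probe was called (0) and 38 were past fold and p at 24 hr. Signal over background was low, above all in Cy5 of replicate 1, where the median over arrays was 1.05, and its part in these counts was not tested beyond leaving out the weak arrays.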

Other observations

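BCL11A, a zinc finger repressor, had a positive mean ratio at each time: 0.45 ± 0.47 (SD, n = 3) at 0 hr, 0.38 ± 0.22 at 24 hr, and at 48 hr the highest of them, 0.66. The ratios of ZNF93 were 0.30, 0.21 and 0.24 in that order. Neither gene met the limits of fold and p at 24 hr, and no test of the mean over the times is given.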
